A study of Mus musculus with 6 samples.

Results

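The genes described here encode 4 groups of RNA-binding splicing regulators: Nova1 and Nova2, Rbfox1, Rbfox2 and Rbfox3, Srrm3 and Srrm4, and Khdrbs1, Khdrbs2 and Khdrbs3, the last being SAM68 and its relatives. A gene was taken from the array when a transcript cluster, the array's gene-level unit, was annotated with its symbol alone, and the brightest such row was to stand for it. Of the 10 genes 7 had such a row, 1 row each, among 17213 transcript clusters and 14807 genes. Nova1, Nova2 and Srrm4 had none and were not analysed here. All samples were N2A cells, a mouse neuroblastoma line, and total RNA from each was hybridised to its own mouse exon array. In 3 samples, called biological replicates in the labels, the cells carried an empty vector, and in the other 3 they expressed a short hairpin RNA (shRNA) directed against PTB, the splicing repressor encoded by Ptbp1. Loss of PTB protein was followed by western blot according to the labels. No sample carried a control hairpin, so loss of PTB and other effects of a hairpin cannot be told apart.

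Each of these proteins reads a short RNA sequence near an exon and changes how often that exon is kept. RBFOX proteins bind the hexamer UGCAUG through a single RNA recognition motif, and where they bind relative to the exon sets whether it is included or skipped; RBFOX3 is the neuronal nuclear antigen NeuN. NOVA proteins use KH domains to bind YCAY clusters in neuronal transcripts. SRRM4 and its relative SRRM3 promote the inclusion of very short neuronal exons, many of which PTB represses. SAM68 (Khdrbs1) is widely expressed and binds A and U rich RNA, whereas SLM1 (Khdrbs2) and SLM2 (Khdrbs3) are more restricted to the nervous system, where they act on neurexin exons. During neuronal differentiation PTB declines while these regulators act on many of the same neuronal exons, so the comparison asks whether their RNA levels differ between cells with and without the hairpin.

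The values were linear gene-level intensities, so they do not show which exons the RNAs contained, and in such bulk RNA fewer cells with a transcript and less of it per cell cannot be told apart. The arrays summed to between 10651755 and 12509077 with empty vector and between 9098056 and 10440265 with PTB shRNA. Ptbp1 fell from 3998 ± 539 to 1435 ± 472 (mean signal ± SD, n = 3), a difference of -1.51 ± 0.25 on the log2(signal + 16) scale (SE; limma adjusted p = 0.0402), and its groups did not overlap. That call ended when any 1 array was left out (adjusted p = 0.0536 to 0.132), as did every other call at the threshold of 0.05, because 0 transcript clusters then passed. The Ptbp1 difference itself stayed between -1.75 and -1.30. On the log2(signal + 1) scale the Ptbp1 call was also lost (limma adjusted p = 0.0605), at a difference of -1.52. Of 11 sympathoadrenal markers 8 were measured, Phox2a being the brightest, and they summed to 5406 to 6732 with empty vector and 4275 to 5928 with PTB shRNA. Marker sums were far lower for glia (5 of 7 measured, 120 to 178 and 170 to 328), fibroblasts (6 of 6, 212 to 262 and 283 to 445) and leukocytes (6 of 6, 70 to 83 and 104 to 120), and no marker was at or below 0 on all arrays. The sums of these last 2 lists were higher on every PTB shRNA array than on any control array, with the fibroblast marker Pdgfra and the sympathoadrenal marker Gata3 called higher, and their part in the results below was not tested.

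None of the 7 measured regulators passed limma on the values as deposited, with p-values adjusted over all 17213 clusters, against 4.73% of all clusters called in either direction. At an unadjusted threshold of 0.05, Srrm3 and Khdrbs2 were higher and none was lower, which is 2 of 7 beside 8.49% of all clusters higher and 16.9% lower. The same 2 genes had all PTB shRNA arrays above all empty vector arrays, as did 10.3% of all clusters, while 19.0% had them all below. Differences were positive for 5 genes and negative for Rbfox2 and Khdrbs1, and 48.6% of all clusters were positive. The median over the 7 was 0.22, with 0.00 over all clusters. Without the dimmest 50% of clusters 3 regulators remained, 1 of them positive, with a median of -0.03. The clusters that remained had a median of -0.18, with 29.0% positive. After quantile normalization, which forces the 6 arrays to share a distribution, all 7 differences were positive, the median was 0.20 and Srrm3 alone was called, where 2.93% of all clusters were called higher.

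**Figure D1:**
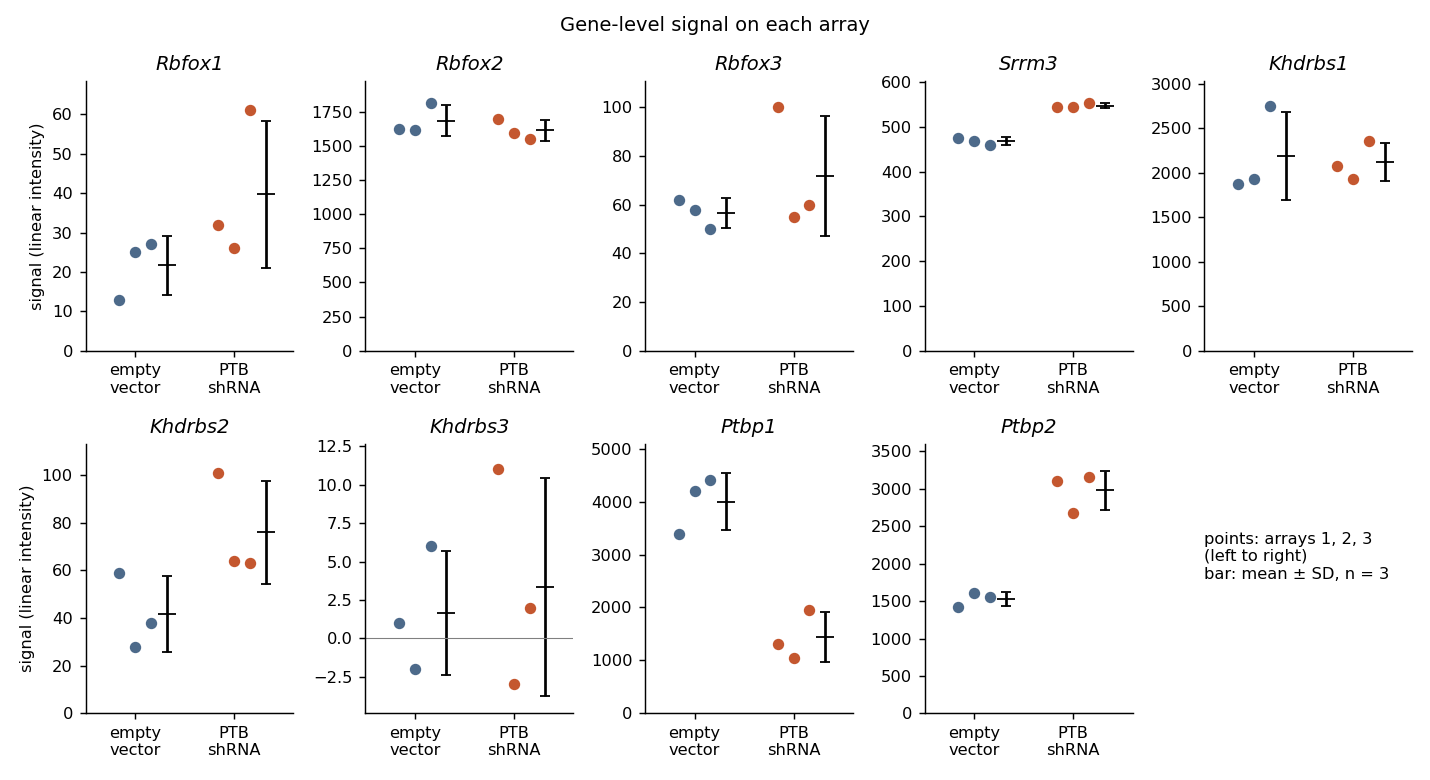
Signal of each measured regulator, and of Ptbp1 and Ptbp2, on the 6 arrays (vertical axes: linear intensity, a separate scale for each gene; points: arrays 1 to 3 of empty vector in blue and PTB shRNA in orange; bars: mean ± SD, n = 3). Srrm3 lies at 459 to 476 with empty vector and at 544 to 553 with PTB shRNA, whereas the groups of Rbfox2 and Khdrbs1 overlap.

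Srrm3, which encodes an SR-related protein with a domain for microexon inclusion, had the smallest standard error of the 7 genes on the values as deposited. Control arrays 1 to 3 read 476, 469 and 459, and hairpin arrays 1 to 3 read 545, 544 and 553. The groups were tight and well apart, with means of 468 ± 8.5 and 547 ± 4.9 (SD, n = 3), a ratio of 1.17. The log2 difference was 0.22 ± 0.07 (SE; limma adjusted p = 0.128), with a 95% interval of 0.04 to 0.39. After quantile normalization the signals became 476, 437 and 418 against 575, 617 and 576, a difference of 0.40 ± 0.08. That value lay on the threshold, with an adjusted p of 0.0499 when negative values were set to 0 before the normalization and 0.0506 when this was done after it. Its sign was positive under all 16 alternatives tried, but only the changes of scaling could have turned it, because the groups did not overlap.

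Khdrbs2, whose protein SLM1 is a neuronal relative of SAM68, had low signals and the widest difference of the 7 genes on the values as deposited. Signals of 59, 28 and 38 in the controls stood against 101, 64 and 63 in the PTB shRNA samples. Every PTB shRNA array was above every control, but the lowest, at 63, was close to the control at 59. The means were 41.7 ± 15.8 and 76.0 ± 21.7 (SD, n = 3), and the log2 difference was 0.68 ± 0.26 (SE; limma adjusted p = 0.172; 95% interval 0.05 to 1.32). It was 0.50 after quantile normalization (adjusted p = 0.209), and 0.88 and 0.46 with a pseudocount of 1 and of 50 in place of 16. With any 1 array left out it ranged from 0.50 to 0.89.

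Promoter windows of Khdrbs2 and Srrm3 are shown because these were the 2 regulators whose groups did not overlap. Both come from RefSeq on build GRCm38.p6, run 5′ to 3′ on the plus strand and span 250 bases before to 50 after an annotated start. Khdrbs2 is at chr1:32172472-32172771 and Srrm3 at chr5:135817856-135818155. Capitals mark the GC box GGGCGG and the CCAAT box CCAAT, searched on both strands.
Khdrbs2: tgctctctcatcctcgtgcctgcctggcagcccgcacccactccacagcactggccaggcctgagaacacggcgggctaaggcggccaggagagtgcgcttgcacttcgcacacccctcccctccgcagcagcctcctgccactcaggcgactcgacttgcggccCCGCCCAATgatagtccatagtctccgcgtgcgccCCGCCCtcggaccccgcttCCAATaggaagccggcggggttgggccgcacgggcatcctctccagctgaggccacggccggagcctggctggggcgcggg
Srrm3: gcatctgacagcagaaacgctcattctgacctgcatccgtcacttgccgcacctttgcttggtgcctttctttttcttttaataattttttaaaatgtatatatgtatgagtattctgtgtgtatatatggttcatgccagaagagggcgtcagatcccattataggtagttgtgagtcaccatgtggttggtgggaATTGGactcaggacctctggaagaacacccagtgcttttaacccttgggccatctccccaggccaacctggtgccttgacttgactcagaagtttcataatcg
The Khdrbs2 window held 2 GC boxes and 2 CCAAT boxes, the first of each sharing bases, with 70.3% G or C and 26 CpG dinucleotides. The Srrm3 window held no GC box, 1 CCAAT box, 45.0% G or C and 5 CpG dinucleotides. Over 32851 such windows the median was 52.7% G or C and 7 CpG dinucleotides, 35.7% held a GC box and 37.4% a CCAAT box. The letters TTCAGCACC, the left part of the site bound by the neuronal gene repressor REST, were in neither window and in 0.371% of all windows. Windows were found for Rbfox1 and Rbfox3 as well, and so for 4 of the 7 measured genes.

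Rbfox2, the family member that is also active outside neurons, had nearly equal signals in both groups. The controls read 1623, 1615 and 1815 and the PTB shRNA samples 1699, 1594 and 1552, and the groups overlapped. The log2 difference was -0.06 ± 0.09 (SE; limma adjusted p = 0.725), with a 95% interval of -0.28 to 0.16, which corresponds to 0.823 to 1.12 times the control level. After quantile normalization the sign turned, to 0.15 (adjusted p = 0.355; interval -0.06 to 0.36).

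Rbfox1, the neuronal and muscle member of the family, measured 13, 25 and 27 in the controls and 32, 26 and 61 in the hairpin samples. The groups overlapped by a single unit of signal at 26 and 27, and PTB shRNA array 3 alone stood well above the rest. The log2 difference was 0.53 ± 0.28 (SE; limma adjusted p = 0.301; 95% interval -0.16 to 1.23). It was 0.27 without that array and 0.32 after quantile normalization, and it was positive under all 14 alternatives that retained this dim gene. In some of these, such as the replicate block, the estimate cannot change. Rbfox3 measured 62, 58 and 50 in the controls and 100, 55 and 60 in the hairpin samples. Only PTB shRNA array 1 was above the controls, and without it the log2 difference of 0.24 ± 0.21 (SE; adjusted p = 0.530) became 0.02. The RNA of this marker of mature neurons was thus not detectably different at this precision (95% interval -0.28 to 0.76).

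Khdrbs1, which encodes SAM68, a regulator whose RNA binding is controlled by phosphorylation and methylation, measured 1870, 1937 and 2756 in the controls. With PTB shRNA it measured 2074, 1935 and 2359, within the range of the controls. Empty vector array 3 was the highest of the 6. The log2 difference was -0.03 ± 0.18 (SE; limma adjusted p = 0.957; 95% interval -0.47 to 0.42). It turned to 0.15 without that array and to 0.20 after quantile normalization (adjusted p = 0.392).

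Khdrbs3, encoding SLM2, had signals at the background of the array. The controls read 1, -2 and 6 and the hairpin samples 11, -3 and 2, so that both groups reached below 0 and no fold is given. The difference on the log2(signal + 16) scale was 0.13 ± 0.24 (SE; limma adjusted p = 0.786), and 0.01 after quantile normalization. Without PTB shRNA array 1 it was -0.10.

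**Figure D2:**
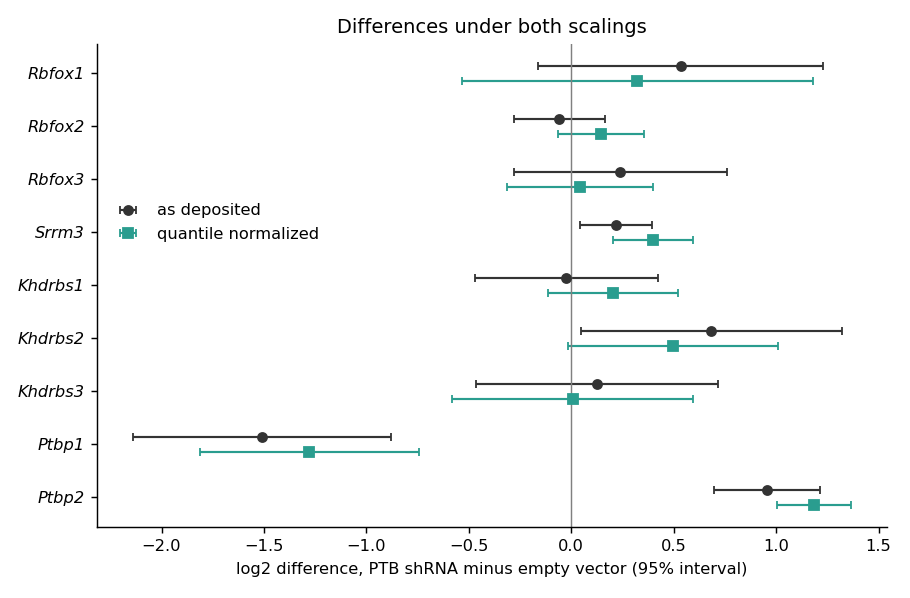
Difference between PTB shRNA and empty vector for each regulator and for Ptbp1 and Ptbp2 (horizontal axis: log2(signal + 16); bars: limma 95% intervals, 3 arrays per group), from the values as deposited (black circles) and after quantile normalization (green squares). Rbfox2 and Khdrbs1 cross from below 0 to above 0 between the scalings, and the Srrm3 interval lies above 0 under both.

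Balance within a family was compared as the log2 ratio of 2 relatives on the same array, taken on log2(signal + 16), where a scaling of the array cancels between bright genes but only in part for a dim one. Of 8 possible pairs 6 had both genes measured, and an exact permutation test of 3 arrays against 3 cannot give a two-sided p under 0.1. The ratio of Rbfox1 to Rbfox2 was the only one whose groups did not overlap. Relative to the empty vector mean it was -0.31, 0.20 and 0.10 in the controls and 0.36, 0.26 and 1.17 in the hairpin samples. The shift of 0.59 had the smallest p possible (exact permutation p = 0.1; 0.6 after Benjamini-Hochberg adjustment over 6 pairs), but after quantile normalization it was 0.18 (exact permutation p = 0.8). It was 0.31 without PTB shRNA array 3, the array that was high for Rbfox1, and 0.87 and 0.37 with a pseudocount of 1 and of 50. Khdrbs1 relative to Khdrbs2 shifted by -0.71 (exact permutation p = 0.2, adjusted 0.6) and by -0.29 after quantile normalization. Rbfox1 and Rbfox2, each relative to Rbfox3, shifted by 0.30 and -0.30 (exact permutation p = 0.5 and 0.4). Both pairs with Khdrbs3 were computed, but its signals lay at background, so no shift is read from them.

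**Figure D3:**
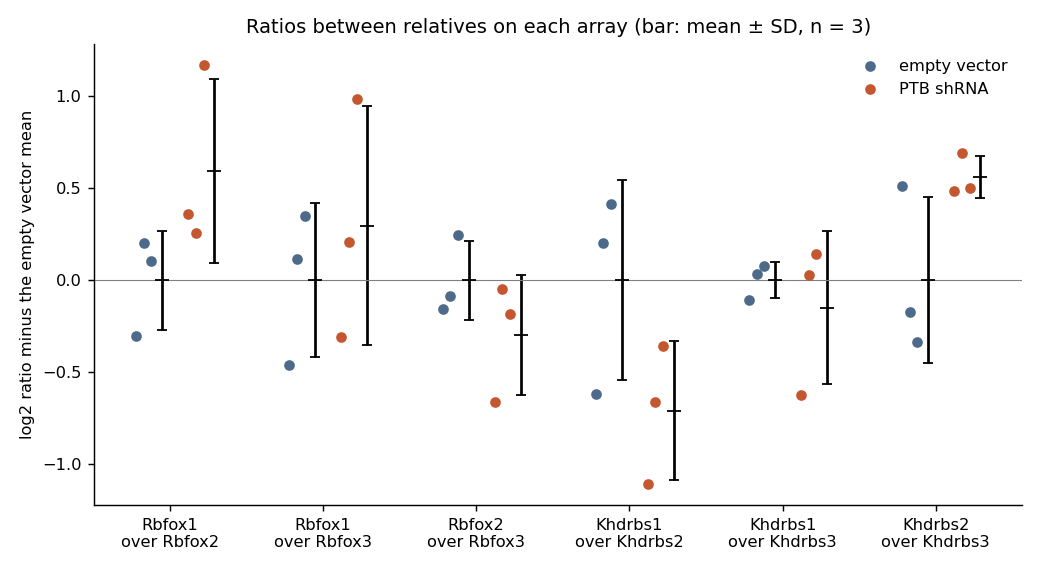
Log2 ratio of 2 relatives on each array, with the empty vector mean of that pair set to 0 (vertical axis; blue: empty vector, orange: PTB shRNA; bars: mean ± SD, n = 3). In Rbfox1 over Rbfox2 the lowest PTB shRNA array, at 0.26, is above the highest control, at 0.20, and in the other 5 pairs, of which both with Khdrbs3 rest on signals at background, the groups overlap.

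Genes on which these proteins act, or with which they work, were taken from 8 lists. Over the 73 measured of 89 listed genes, 1 was higher and 1 lower on the values as deposited, beside 1.36% of all clusters higher and 3.37% lower. At an unadjusted threshold of 0.05 (limma), 6 were higher and 11 lower, beside 8.49% and 16.9% of all clusters. These shares are also the background for the unadjusted counts of each list below, and no list was tested for an excess. After quantile normalization 5 were higher and 0 lower, with 19 higher and 4 lower at an unadjusted threshold of 0.05 (limma). Of all clusters, 2.93% and 2.86% were called there, and 12.4% and 12.7% passed unadjusted. The list median difference moved from -0.09 to 0.09 between these settings, while that of all clusters was 0.00 under both. The listed genes were mostly bright, and 60 remained when the dimmest 50% of clusters were left out. Their median was then -0.13, beside -0.18 for all clusters that remained. That comparison was made on the values as deposited only. The counts after quantile normalization thus have no background of similarly bright clusters, and no excess of higher list genes is read from them.

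Among 10 measured of 14 hosts of RBFOX-regulated exons, Ptbp2 was called higher and none lower, with 3 higher and 2 lower at an unadjusted threshold of 0.05 (limma). Ptbp2, the neuronal PTB paralog with RBFOX sites beside a regulated exon, had signals of 1420, 1611 and 1553 in the controls and 3103, 2681 and 3162 in the hairpin samples. The groups were far apart, with a log2 difference of 0.96 ± 0.10 (SE; limma adjusted p = 0.0288), and 1.18 after quantile normalization. Whether RBFOX proteins, the loss of PTB itself or other effects of the hairpin had a part in this difference was not tested. Enah, which encodes an actin-regulating protein with an RBFOX-controlled exon, measured 1013, 1142 and 1397 against 1457, 1417 and 1577. Its groups did not overlap, and its difference of 0.33 (adjusted p = 0.207) was 0.53 and called after quantile normalization (adjusted p = 0.0385). Src (0.55), Fn1 (-0.50) and Ctnnd1 (0.48) differed more widely than Enah as deposited. After quantile normalization they were at 0.40, -0.28 and 0.67, and none of them was called under either setting. The list median was 0.05 as deposited and 0.24 after quantile normalization.

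Among 14 measured of 15 hosts of SRRM4-regulated microexons none passed limma as deposited, with 0 higher and 2 lower at an unadjusted threshold of 0.05, and 2 were higher after quantile normalization. Kdm1a, the histone demethylase whose neuronal form contains a microexon, measured 2921, 3257 and 3654 in the controls and 4660, 3794 and 3867 in the hairpin samples. All hairpin arrays were above the controls, and its difference was 0.32 (limma adjusted p = 0.20), or 0.61 after quantile normalization (adjusted p = 0.0304). Vav2, which encodes a guanine nucleotide exchange factor, measured 407, 428 and 520 against 532, 532 and 616, a difference of 0.30 (adjusted p = 0.206), or 0.49 after quantile normalization (adjusted p = 0.0476). Eif4g3, a translation initiation scaffold, differed by -0.46 (adjusted p = 0.0922) and Unc13b, a synaptic vesicle priming factor with signals near background, by 0.40 (adjusted p = 0.280; 1.61 and 0.15 with a pseudocount of 1 and of 50). The list median was -0.04 as deposited and 0.15 after quantile normalization.

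Among 12 measured of 14 hosts of NOVA-regulated exons, Map4, a microtubule-associated protein gene, was the single one called. The controls read 995, 1069 and 1033 and the hairpin samples 681, 688 and 737. It fell by 0.55 on the log2 scale (SE 0.08; limma adjusted p = 0.0342), and by 0.36 in the quantile-normalized values, short of the threshold (adjusted p = 0.0569). Among 8 measured of 10 hosts of exons regulated by SAM68 and its relatives none passed, with 1 higher and 0 lower at an unadjusted threshold of 0.05 (limma). The widest differences there were -0.38 for the sarcoglycan gene Sgce (adjusted p = 0.274) and 0.35 for the syntaxin-binding gene Stxbp5l (adjusted p = 0.171). Sgce was at -0.21 without PTB shRNA array 3. The medians of the NOVA and SAM68 hosts were -0.06 and -0.07 as deposited and 0.06 and -0.02 after quantile normalization.

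Partners of the regulators gave no call on the values as deposited. Of 6 measured of 8 proteins of the RBFOX complex called LASR, none passed (0 higher and 1 lower at an unadjusted threshold of 0.05, limma), with Matr3 at -0.32 (adjusted p = 0.156) and Ilf2 at 0.22 (adjusted p = 0.540), the latter at 0.08 without empty vector array 1 and 0.44 without empty vector array 3. All 8 measured of 9 SRRM relatives and 3′ splice site partners had negative differences with a median of -0.20, none past the threshold and 2 lower unadjusted. All 8 remained when the dimmest 50% of clusters were left out, and the clusters that remained had a median of -0.18, with 29.0% positive. The widest were those of the splicing activator Tra2b (-0.43, adjusted p = 0.102) and of Srrm1 (-0.35, adjusted p = 0.0947), an SR-related coactivator. After quantile normalization 5 of these 8 were positive and the median was 0.03.

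Of 7 measured of 10 kinases and partners of SAM68 none passed, as deposited or after quantile normalization. At an unadjusted threshold of 0.05 (limma) 3 were higher and 0 lower under both settings. Of all clusters, 8.49% were higher unadjusted as deposited and 12.4% after quantile normalization. Src, a tyrosine kinase that phosphorylates SAM68 and which also hosts a neuronal exon repressed by PTB, measured 69, 74 and 66 in the controls and 133, 102 and 96 in the hairpin samples. Its groups did not overlap, and the difference was 0.55 ± 0.13 (SE; adjusted p = 0.0750), or 0.40 after quantile normalization (adjusted p = 0.0547). Src is also on the list of RBFOX exon hosts, so it is counted among the genes higher unadjusted in both lists. Pik3r1, a regulatory subunit of phosphoinositide 3-kinase, differed by 0.42 (adjusted p = 0.104), or by 0.61 after quantile normalization (adjusted p = 0.0514). The list median was 0.04 as deposited and 0.22 after quantile normalization.

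Other proteins with KH domains, the fold shared by NOVA and SAM68, had negative differences in 8 of 9 measured genes of 10 listed, with a median of -0.25. All 9 were also among the clusters left without the dimmest 50%, whose median was -0.18 with 29.0% positive. None passed (0 higher and 3 lower at an unadjusted threshold of 0.05, limma, beside 16.9% of all clusters lower). Pcbp3 (-0.51, adjusted p = 0.114) and Pcbp1 (-0.39, adjusted p = 0.384), which encode poly(C)-binding proteins, were widest. Pcbp1 was at -0.19 without PTB shRNA array 2 and -0.64 without PTB shRNA array 3. Qk, the STAR family relative of SAM68, was the positive one at 0.14 (adjusted p = 0.452; 0.06 without empty vector array 1), and at 0.38 it was called after quantile normalization (adjusted p = 0.0385), where the list median was 0.03.

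**Figure D4:**
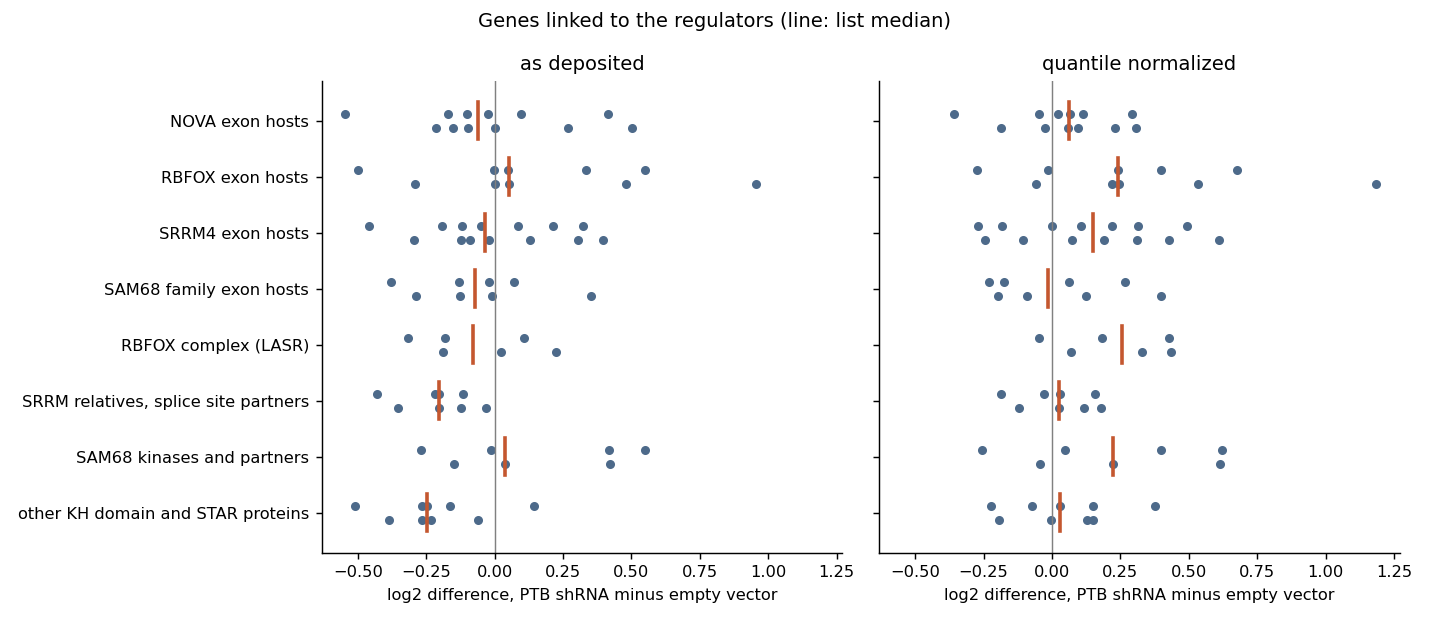
Log2 difference between PTB shRNA and empty vector of every measured gene of the 8 lists (points; horizontal axis: log2(signal + 16)), from the values as deposited on the left and after quantile normalization on the right, with the list median as a line. The median of the RBFOX complex moves from -0.08 to 0.26, and Ptbp2 stands apart at 0.96 and 1.18 among the RBFOX exon hosts.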

How the data were processed

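The deposited values are linear intensity per transcript cluster in whole numbers, 1 column per array, with negative values present. The submitters' processing notes name GCOS 1.3. The summary of probes, the background subtraction and the scaling between arrays are not stated in the labels. Totals and quartiles differ between arrays, so these gene-level intensities do not share a distribution. Whether the probes were normalized before they were summarized cannot be told from them. Of 17213 clusters 15146 had 1 gene symbol in the platform annotation, 1278 several and 789 none.

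Negative signals were raised to 0 and converted to log2(signal + 16), a scale that understates changes of dim genes. All clusters were fitted with limma 3.58.1 (lmFit, eBayes; R 4.3.3) on 6 arrays without a block, with 4 residual degrees of freedom, and adjusted by Benjamini-Hochberg. The fit was also run on simulated data with independent noise and equal array scaling, which cannot test the scaling of these arrays. Its outcome is not given here. The number of arrays limits the precision. Alternatives covered scaling, pseudocounts, dim clusters, eBayes settings, array weights, a replicate block and left-out arrays.

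Members and lists were chosen with earlier results of these data known. All measured members were named, with Ptbp1 and Ptbp2, and from each list up to 4 called genes or, where none passed, the 2 with the widest differences, plus up to 3 called after quantile normalization only. Phox2a, Gata3, Pdgfra, Fn1 and Ctnnd1 were named after their values were seen. Replicates are separate samples per the labels. No promoter sequence was used for any test. Plots used Python 3.11.15 and matplotlib 3.10.9.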

Additional observations from a re-analysis of the deposited data

How the results depend on the processing

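Over all clusters, 234 were higher and 580 lower as deposited, and 505 and 493 after quantile normalization (49.4% lower in place of 71.3%), with 205 and 400 shared. Quantile normalization before the floor, chosen after seeing the data, gave 503 higher. Centring each array on its median gave 376 higher. The other counts of higher and lower clusters were 84 and 132 with a pseudocount of 1, 499 and 1386 without the dimmest 30% of clusters, 386 and 2100 without the dimmest 50%, 463 and 1502 with a trended and robust eBayes and 445 and 1180 with array weights, and 930 were lower with a pseudocount of 50. Leaving out any 1 array gave 0 and 0 (limma; 1001 to 1721 higher and 2008 to 3018 lower unadjusted), and 0 called members and list genes.

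The count of members called was 0 in each direction under the alternatives tried, except 1 higher after quantile normalization (Srrm3). Both orders of floor and quantile normalization gave 5 list genes higher and 0 lower. List genes called higher were 2 with median centring or without the dimmest 30%, and 4 without the dimmest 50%. List genes called lower were 0 with a pseudocount of 1, 5 without the dimmest 50% and 2 with a trended and robust eBayes. Signs reversed for Rbfox2 (0.15 after either quantile normalization), for Khdrbs1 (0.20 after either, 0.0162 with array weights, and -0.13 to 0.15 with 1 array left out) and for Khdrbs3 (-0.10 to 0.28 with 1 array left out). They also reversed for the ratio of Rbfox2 to Rbfox3 (0.10 after quantile normalization), of Khdrbs1 to Khdrbs3 (0.20 after quantile normalization, -0.2986 to 0.0861 with 1 array left out) and of Rbfox1 to Rbfox3 (-0.0494 to 0.5965 with 1 array left out). The cause was not tested. Using the mean of a gene's rows was not run, because each member had 1 row.

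With the replicate number as a block (replicate block) 0 clusters were higher and 0 lower, list genes included (1708 higher and 2963 lower unadjusted). With this block Ptbp1 and Ptbp2 each had a limma adjusted p of 0.0840. Deviations of same-numbered samples correlated at 0.23, 0.0547 and 0.26 across clusters, and those of other pairs at -0.263 to 0.0498. Each sample thus correlated best with its own number, but for PTB shRNA array 2 the margin was very small. It correlated at 0.0547 with empty vector array 2 and at 0.0498 with empty vector array 1. The main fit did not use the numbers as pairs, and what same-numbered samples share was not tested. Signals near 0, as for Khdrbs3, limit what these arrays resolve.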
